A study of Mus musculus with 107 samples.

Results

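The genes described here are 10 transcription factor genes of the endothelial lineage, namely Sox7, Sox17, Sox18, Erg, Fli1, Ets1, Tal1, Klf2, Klf4 and Mef2c. They were taken by gene symbol from a table of 50686 mouse genes, and each symbol matched 1 gene. The table gives RNA levels in tumors of 12 syngeneic models, in which a mouse cancer cell line was grown under the skin of the right flank of mice. In each model, 3 tumors were collected without treatment at about 100 mm3 (Base, treatment-naive), 3 on day 8 from mice that were not treated (NT), and 3 on day 8 after 7 days of lenvatinib (LEN) at 10 mg/kg by mouth once daily. Only the treatment-naive MC38 group is smaller, with 2 tumors, which gives 35 Base, 36 NT and 36 LEN tumors. LEN is an inhibitor of several receptor tyrosine kinases, among them the VEGF and FGF receptors.

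The models were BNL 1ME A.7R.1 (BNL) and Hepa 1-6 from liver, Renca and RAG from kidney, LL/2 and KLN205 from lung, CT26.WT and MC38 from colon, 4T1 and EMT6 from breast, MBT2 from bladder, and the melanoma B16-F10. BNL, RAG, 4T1, CT26.WT, EMT6 and Renca grew in BALB/cAnNCrlCrlj mice, MC38 and B16-F10 in C57BL/6NCrl, LL/2 in C57BL/6JCrl, MBT2 in C3H/HeNCrl, KLN205 in DBA/2NCrl and Hepa 1-6 in C57L/J. Mice were 7 weeks old when the cells were implanted, male for Hepa 1-6 and BNL and female for the rest. Each model is a single cell line, and the RAG cells had first been adapted to growth in mice. A p-value over tumors therefore covers the spread between tumors of 1 line.

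Endothelial cells keep their identity through a small network of transcription factors that bind each other's genes and the genes of vessel receptors and junctions. The SOX factors of the F group (Sox7, Sox17 and Sox18) act in arterial and lymphatic specification, and the ETS factors Erg and Fli1 bind enhancers of most genes that mark the endothelium. Klf2 and Klf4 are induced by blood flow, and MEF2 factors are known to activate Klf2. None of these genes is used by endothelial cells alone: Fli1, Ets1 and Tal1 act in blood cells, Klf2 in T cells and monocytes, Klf4 in epithelium and myeloid cells, and Mef2c in muscle, neural crest, macrophages and B cells.

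In genome build GRCm38 (GENCODE M21), all 10 are protein-coding genes. The SOX genes lie on 3 chromosomes, Sox7 at chr14:63943673-63950732 on the plus strand, Sox17 at chr1:4490931-4497354 on the minus strand and Sox18 at chr2:181669836-181671640 on the minus strand. Of the ETS genes, Erg lies at chr16:95359169-95586593 on the minus strand, while Fli1 (chr9:32422204-32542861, minus) and Ets1 (chr9:32636221-32757820, plus) are neighbours. Tal1 (chr4:115056426-115071755, plus) and Klf4 (chr4:55527143-55532466, minus) share a chromosome, Klf2 lies at chr8:72319033-72321656 on the plus strand, and Mef2c at chr13:83504034-83667080 on the plus strand. The exons of 9 of the genes share no base with another annotated gene. Sox17 shares 804 of its 4772 exon bases with Gm37587, a transcript of the opposite strand, which was listed at 0 in 75 tumors and reached at most 0.25 TPM.

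The promoter table of RefSeq (GRCm38.p6) held 5 of the 10 genes, namely Erg, Tal1, Klf2, Klf4 and Mef2c. The 250 bases before the start site are shown for 3 windows: those of Klf2 and Klf4, the members that were higher with LEN, and the innermost of the 3 start sites of Erg, which was lower. Windows not shown are those of the other Erg start sites, 1 of which also lies inside the gene, and of 2 start sites of Tal1, all with no match, and of 3 start sites of Mef2c, 2 of which held a CACCC box each and 3 E-boxes between them. Capitals mark matches, on either strand, to the letters of 5 motifs of the families these genes encode. The motifs are the MEF2 box (CTA and TAG with any 4 bases between), the CACCC box CCACCC that KLF factors bind, the ETS core CAGGAA, the E-box CANNTG bound by partners of Tal1, and the SOX core ACAATG.
Klf2, chr8:72318812-72319061, plus strand: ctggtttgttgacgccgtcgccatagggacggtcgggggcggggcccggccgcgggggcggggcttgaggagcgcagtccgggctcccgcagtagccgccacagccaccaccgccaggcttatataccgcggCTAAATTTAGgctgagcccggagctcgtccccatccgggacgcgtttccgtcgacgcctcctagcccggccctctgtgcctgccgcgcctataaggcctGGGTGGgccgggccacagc
Klf4, chr4:55532476-55532725, minus strand: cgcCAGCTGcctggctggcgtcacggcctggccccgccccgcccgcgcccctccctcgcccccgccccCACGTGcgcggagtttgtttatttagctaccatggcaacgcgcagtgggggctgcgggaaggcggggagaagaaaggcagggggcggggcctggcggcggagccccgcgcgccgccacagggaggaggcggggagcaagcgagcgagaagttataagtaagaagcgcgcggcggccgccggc
Erg, innermost start, chr16:95459349-95459598, minus strand: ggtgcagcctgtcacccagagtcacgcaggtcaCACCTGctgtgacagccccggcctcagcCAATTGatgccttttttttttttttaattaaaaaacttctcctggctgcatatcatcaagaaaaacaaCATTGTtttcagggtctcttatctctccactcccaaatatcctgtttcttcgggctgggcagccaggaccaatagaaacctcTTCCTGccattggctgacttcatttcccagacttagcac

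The Klf2 window held a MEF2 box at 118 to 109 bases before the start and a CACCC box, on the other strand, at 19 to 14 bases. A MEF2 box was found in 3.2% of 32851 windows of this length in the table, and a CACCC box in 28.1%. The Klf4 window held E-boxes at 247 to 242 and 182 to 177 bases before the start, a motif that 66.2% of the windows hold. At the innermost start of Erg there were E-boxes at 217 to 212 and 189 to 184 bases, a SOX core on the other strand at 121 to 116 bases (10.7% of windows) and an ETS core on the other strand at 39 to 34 bases (25.7% of windows). The windows of Klf2 and Klf4 are rich in G and C (71.2% and 74.0%), and that of Erg is not (47.2%). By GENCODE, 29 bases of the Klf2 window fall inside its first exon, the Klf4 window lies outside the gene, and the Erg window lies inside the gene and outside its exons. These are matches of letters only.

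All 10 genes were above 0 in every tumor. Values are TPM, a measure of transcript number that the authors scaled by gene length and to the same total in each tumor. They keep no sequencing depth, so the counting error behind a value is unknown. As a check of the labels, the most similar tumor over all genes came from the same model in every case, and from the same model and group for 99 tumors. The share of TPM in protein-coding genes ran from 27.5% to 66.6%.

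In treatment-naive tumors, Tal1 had the lowest median and Ets1 the highest on the TPM scale. Sox7 ranged from 0.49 to 2.71 TPM over the 35 tumors (median 1.39), Sox17 from 0.56 to 6.42 (median 1.75) and Sox18 from 2.38 to 19.94 (median 6.7). Of the ETS genes, Erg ranged from 0.81 to 6.8 TPM (median 2.42), Fli1 from 3.04 to 16.09 (median 8.03) and Ets1 from 11.44 to 137.23 (median 37.82). Tal1 had a median of 0.8 TPM, with single tumors between 0.12 and 12.57, whereas Klf2 (4.63 to 58.31, median 16.58), Klf4 (3.59 to 88.14, median 20.66) and Mef2c (3.22 to 31.28, median 9.56) stood higher. Levels differed between models for each of the 10 genes (limma F test over 12 models, adjusted p under 0.05). The same test was passed by 86.1% of all genes tested, so it does not set these genes apart.

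**Figure D1:**
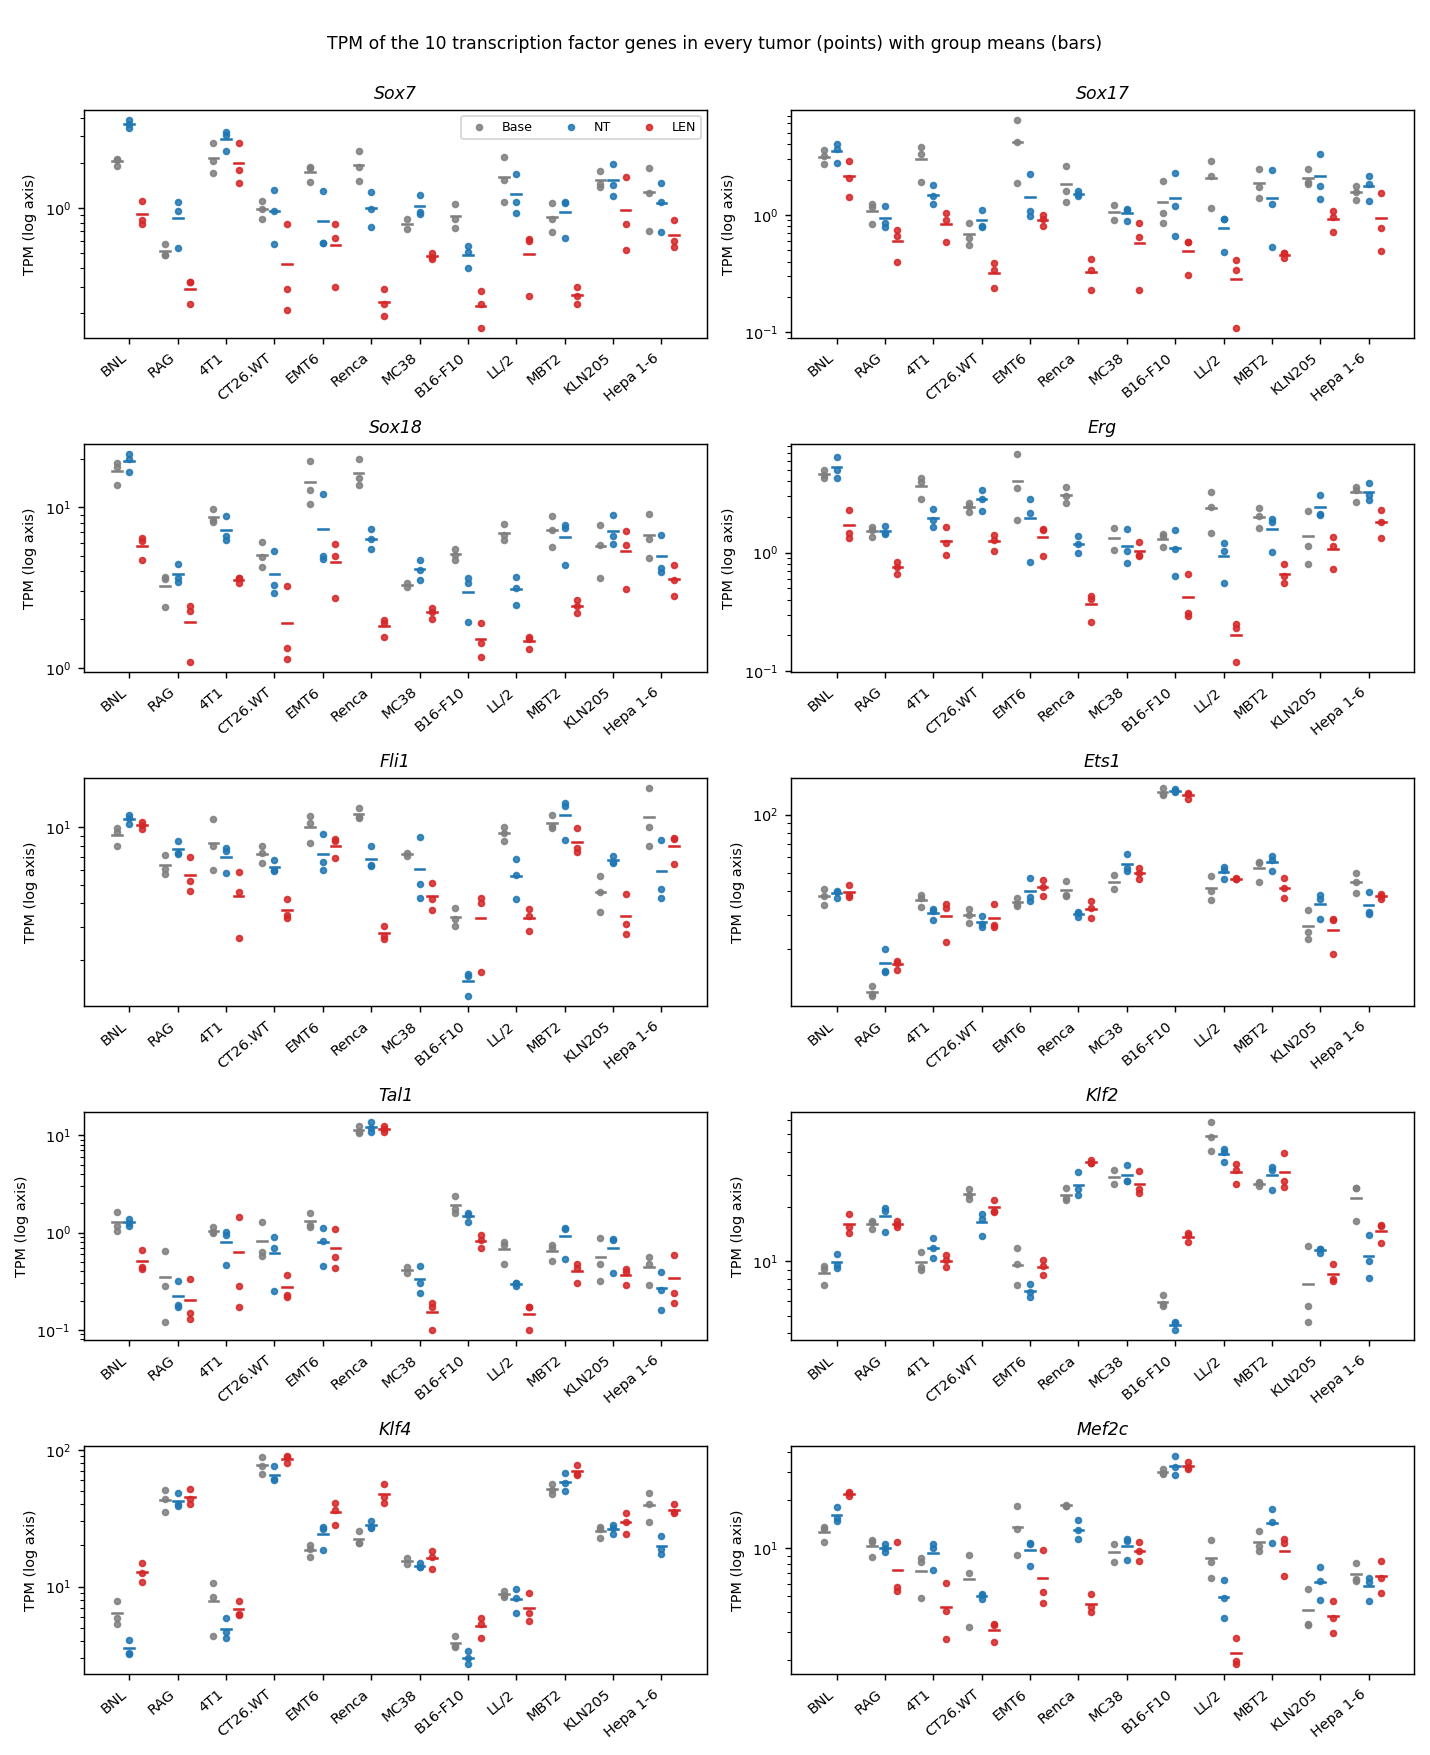
TPM of each gene on a log axis, for every tumor (points) of the 12 models, with bars at the mean of the treatment-naive (Base), NT and LEN groups. Ets1 and Mef2c in B16-F10 and Tal1 in Renca stand above all other models in each group, and the LEN bars of Sox7, Sox17, Sox18 and Erg lie below the NT bars in all 12 models.

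The SOX genes differed between 4.15-fold (Sox7) and 6.10-fold (Sox17) from the lowest to the highest model mean. Sox18, a factor of vessel and lymphatic growth, was highest in BNL (16.8 ± 2.7 TPM, SD, n = 3), Renca (16.3 ± 3.2) and EMT6 (14.3 ± 4.7), whose ranges overlapped. Its lowest means were in MC38 (3.27 ± 0.11, n = 2) and in RAG (3.22 ± 0.73), which was 5.21-fold under BNL. These 3 high models were separated from the next, 4T1 (8.73 ± 0.89), by ranges that did not overlap.

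Sox7, which acts early in vessel formation, was highest in 4T1 (2.16 ± 0.51 TPM) and lowest in RAG (0.52 ± 0.052). Sox17, an arterial factor, was highest in EMT6, where its 3 tumors gave 4.2, 1.88 and 6.42 TPM, and lowest in CT26.WT at 0.56, 0.85 and 0.64. Among the 11 steps between neighbours in the order of models, only 1 was free of overlap for Sox7 and 1 for Sox17, in each case the step to the lowest model. Most neighbouring models thus could not be ordered.

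For Erg, the ETS factor that sustains junction genes such as Cdh5, the highest mean was in BNL (4.59 ± 0.37 TPM) and the lowest in B16-F10 (1.31 ± 0.18), and no step between neighbours was free of overlap. Fli1, which acts in endothelium and in blood cells, was highest in Renca (11.7 ± 0.82) and lowest in B16-F10 (3.36 ± 0.36). KLN205 (4.57 ± 0.96) and B16-F10 stood below the other 10 models without overlap.

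Ets1, Mef2c and Tal1 each had a single model far above the others. The B16-F10 tumors had Ets1 at 126.58, 128.5 and 137.23 TPM, against a mean of 52.6 ± 6.8 in the next model, MBT2, and 12.0 ± 0.77 in RAG, the lowest. Mef2c, a MADS-box factor, was at 31.28, 29.66 and 29.41 TPM in B16-F10, against 18.6 ± 0.12 in Renca, the next, and 4.09 ± 1.3 in KLN205, the lowest. In Renca, Tal1 (a basic helix-loop-helix factor of blood and vessel progenitors) was at 10.61, 10.73 and 12.57 TPM, whereas no other model had a mean above 1.90. The ranges did not overlap in these 3 cases.

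The highest models of Tal1, Ets1 and Mef2c kept those levels on day 8. Tal1 in Renca was at 13.58, 10.77 and 11.74 TPM in NT and at 11.55, 12.42 and 10.85 in LEN. In B16-F10, Ets1 was at 132.73, 136.49 and 130.66 TPM in NT and at 120.27, 128.59 and 129.88 in LEN, and Mef2c was at 32.37, 37.71 and 28.8 in NT and at 31.3, 34.84 and 32.13 in LEN. The NT and LEN ranges of Tal1 in Renca and of Mef2c in B16-F10 overlapped, and those of Ets1 in B16-F10 were apart by less than 1 TPM. In the same B16-F10 tumors the junction gene Cdh5 went from 9.31 ± 1.69 TPM in NT to 3.27 ± 0.202 in LEN, and in Renca from 17.7 ± 2.70 to 3.72 ± 0.567.

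The Krüppel-like factors followed another order. Klf2 was highest in LL/2 (49.0 ± 9.0 TPM), followed by MC38 (29.2 ± 3.6), and lowest in B16-F10 (5.98 ± 0.45). Klf4, a factor of epithelial differentiation, was highest in CT26.WT at 88.14, 66.35 and 76.24 TPM and lowest in B16-F10 at 4.31, 3.59 and 3.65. Of the 11 steps between neighbours, 6 were free of overlap for Klf4 and 4 for Klf2, more than for any other gene here, where the counts ran from 0 to 3. Differences between models made up 97.3% of the variance of Klf4 and of Ets1 on the log2(TPM + 1) scale, and 72.5% of that of Sox17, the smallest share.

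Over the 12 models, treatment-naive levels of Sox18, Erg and Sox7 rose with those of endothelial genes in the same libraries. The endothelial level of a model was the mean log2(TPM + 1) of Cdh5, Pecam1, Tie1, Esam, Egfl7, Robo4, Ecscr and Cldn5. It was highest in Renca (4.24) and lowest in RAG (2.71). Pearson's r with it was 0.864 for Sox18 (permutation p = 0.00031, adjusted p = 0.0031, rho = 0.713 with permutation p = 0.012), 0.855 for Erg (permutation p = 0.00079, adjusted p = 0.00527, rho = 0.804 with permutation p = 0.00229) and 0.770 for Sox7 (permutation p = 0.00467, adjusted p = 0.0233, rho = 0.734 with permutation p = 0.00866). With EMT6 and Renca left out, which lay farthest from the median level, r was 0.776, 0.862 and 0.721. The call for Sox7 was lost without BNL (r = 0.729, adjusted p = 0.0666 by permutation), without RAG (r = 0.687, adjusted p = 0.0992 by permutation) or without Renca (r = 0.740, adjusted p = 0.0565 by permutation). For Fli1 (r = 0.656, adjusted p = 0.0713 by permutation) and Sox17 (r = 0.625, adjusted p = 0.0871 by permutation) the relation did not pass the threshold over the 12 models, though Fli1 did without MBT2 (r = 0.755, adjusted p = 0.0271 by permutation).

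Against the mean of 8 leukocyte and myeloid markers (Ptprc, Csf1r, Adgre1, Cd68, Fcgr3, Lyz2, S100a8 and S100a9), the relation that passed was that of Fli1, with r = 0.884 (permutation p = 0.00021, adjusted p = 0.0031) and rho = 0.797 (permutation p = 0.00267). Without B16-F10 and MBT2 its r was 0.747. Klf2 had r = 0.622 with the same markers (adjusted p = 0.0791 by permutation). Sox17, Ets1, Tal1, Klf2, Klf4 and Mef2c passed with neither set over the 12 models. Leaving out EMT6 brought Klf2 past the threshold with the leukocyte markers (r = 0.755, adjusted p = 0.0222 by permutation). In all, 20 relations were tested by two-sided permutation with adjustment over the 20. A gene and its marker mean came from the same libraries, so scaling of a library enters both, and each point is 1 cell line.

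**Figure D2:**
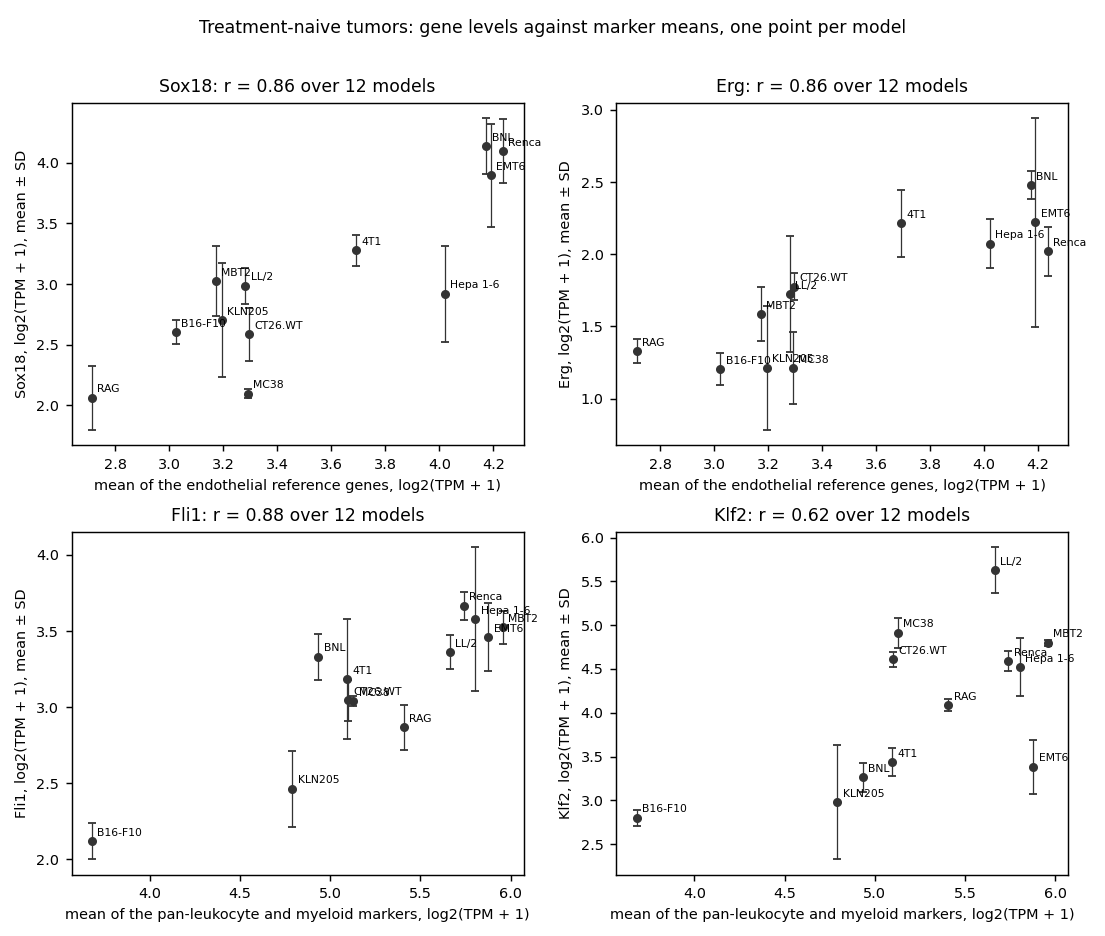
Treatment-naive level of Sox18 and Erg against the mean of 8 endothelial genes, and of Fli1 and Klf2 against the mean of 8 leukocyte and myeloid markers, both as log2(TPM + 1), with 1 point per model and vertical bars of 1 SD over its tumors. Sox18 and Erg rise from RAG on the left to Renca on the right, and B16-F10 lies alone at the low end of the leukocyte axis.

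Given over 7 days, LEN was compared with NT to ask which genes changed under treatment. The LEN effect is the difference in mean log2(TPM + 1), LEN minus NT, averaged over the 12 models in a limma fit of all 72 tumors of day 8. Its SE and p-value come from the spread between tumors within groups, so they do not measure the spread of the effect over models. Of the 10 genes, 7 were lower (Sox7, Sox17, Sox18, Erg, Fli1, Tal1 and Mef2c), 2 were higher (Klf2 and Klf4) and Ets1 did not pass the test. Among all 25636 genes tested, 7.56% were lower and 10.7% higher. In a bulk tumor, fewer cells of a type and less RNA of a gene per cell cannot be told apart, and this holds for every effect given here.

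Sox7 ranged from 0.4 to 3.86 TPM in the 36 NT tumors (median 1.095) and from 0.16 to 2.71 in the 36 LEN tumors (median 0.485). Sox17 went from a median of 1.235 TPM (0.48 to 4.05) in NT to 0.59 (0.11 to 2.9) in LEN, and Sox18 from 4.86 (1.94 to 21.46) to 2.415 (1.09 to 7.13). The ranges over all models overlapped for the 3 SOX genes, and within models LEN lay below NT without overlap in 7 models for Sox7, 9 for Sox17 and 8 for Sox18. Over all genes and models, LEN lay below NT without overlap in 9.85% of tests and above in 11.7%.

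By limma with Benjamini-Hochberg adjustment, the mean effect was -0.51 for Sox7 (SE 0.0488, adjusted p = 5.44e-12), -0.53 for Sox17 (SE 0.0619, adjusted p = 2.95e-09) and -0.82 for Sox18 (SE 0.0736, adjusted p = 1.32e-12). Each was lower in 12 of 12 models. As a ratio of mean TPM, LEN over NT had a median over models of 0.452 for Sox7 (0.236 to 0.692), 0.481 for Sox17 (0.218 to 0.642) and 0.497 for Sox18 (0.284 to 0.75). Low genes are compressed by the pseudocount of 1, and at a pseudocount of 0.1 the effects were -1.07, -1.02 and -1.02.

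Erg fell alongside the SOX genes. Its TPM went from a median of 1.76 in NT (0.55 to 6.48) to 0.945 in LEN (0.12 to 2.31), with a mean effect of -0.59 (SE 0.0544, limma adjusted p = 2.71e-12) and a lower mean in 12 of 12 models. LEN lay below NT without overlap in 9 models, and the ratio of mean TPM had a median of 0.440. The ratio nearest to 1 was in MC38, where NT was at 1.04, 1.57 and 0.82 TPM and LEN at 0.95, 1.23 and 0.94, a ratio of 0.910. The ratio was lowest in LL/2, where NT was at 0.55, 1.21 and 1.03 TPM and LEN at 0.25, 0.12 and 0.23.

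Fli1 and Ets1 are the other ETS genes. Fli1 went from a median of 6.655 TPM in NT (1.3 to 13.48) to 4.51 in LEN (1.74 to 10.63), with an effect of -0.31 (SE 0.062, limma adjusted p = 0.000145) and a lower mean in 9 of 12 models. Ets1, which many cell types use, had medians of 37.03 TPM in NT (15.27 to 136.49) and 37.56 in LEN (15.67 to 129.88), with an effect of -0.08 (SE 0.0379, limma adjusted p = 0.179). When tumors were rescaled by the upper quartile or over protein-coding genes, the Ets1 effect was -0.10 and -0.09 and passed the threshold, which made 8 genes lower. The direction of the other 9 genes was the same under these scalings. Over all genes, 1938 were lower and 2747 higher as deposited, 3416 and 2651 with upper-quartile rescaling, and 3030 and 2895 over protein-coding genes.

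Tal1 was low outside Renca, with medians of 0.755 TPM in NT (0.16 to 13.58) and 0.38 in LEN (0.1 to 12.42). The effect was -0.23 (SE 0.0482, limma adjusted p = 0.000281) at a pseudocount of 1 and -0.56 at 0.1, with a lower mean in 11 of 12 models. Mef2c went from a median of 10.3 TPM in NT (3.64 to 37.71) to 5.535 in LEN (1.88 to 34.84), an effect of -0.46 (SE 0.0636, limma adjusted p = 1.75e-07) that was negative in 10 of 12 models. LEN and NT ranges overlapped in 7 of the 12 models for Tal1 and in 6 for Mef2c.

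Klf4 rose. Its medians were 21.19 TPM in NT (2.71 to 76.51) and 32.0 in LEN (4.2 to 89.51), the effect was 0.46 (SE 0.0464, limma adjusted p = 2.77e-11), and the mean was higher in 11 of 12 models. The ranges did not overlap in 7 models, with LEN above NT in each, and the ratio of mean TPM had a median of 1.35 (0.863 to 3.61). The exception in direction was LL/2, with NT at 6.37, 9.63 and 8.3 TPM and LEN at 9.02, 6.39 and 5.55, which overlap.

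The mean rise of Klf2 over the models lost its call without B16-F10. Its medians were 13.8 TPM in NT (4.18 to 41.77) and 15.85 in LEN (7.73 to 39.6), and the effect over 12 models was 0.20 (SE 0.0408, limma adjusted p = 0.000193), with 5 models lower. Without B16-F10 the effect was 0.09 and the adjusted p was 0.192 (limma). LEN lay above NT without overlap in 5 models and below in 2.

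**Figure D3:**
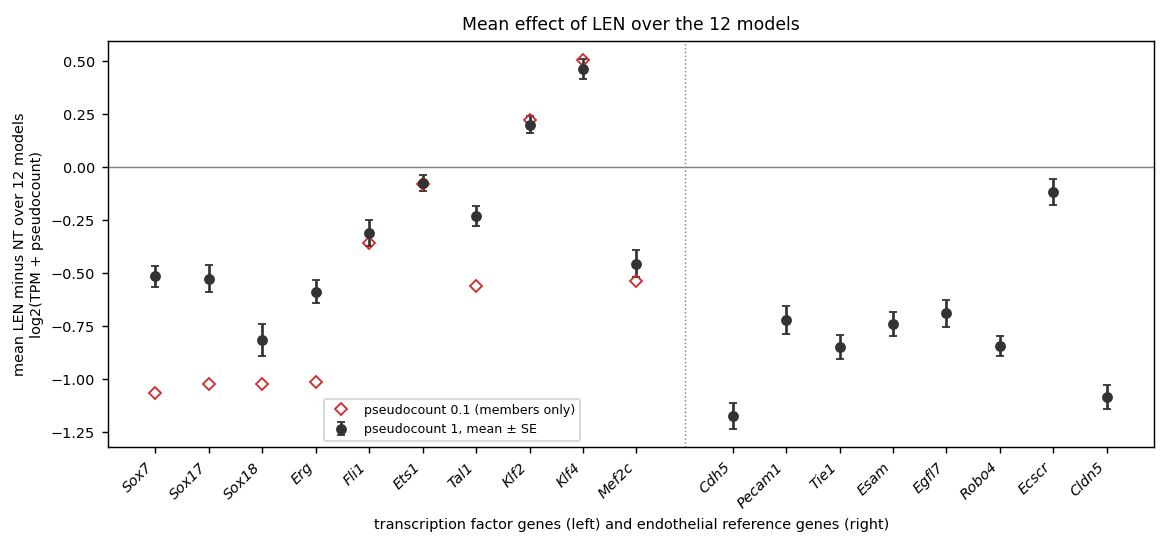
Mean LEN minus NT over the 12 models for the 10 transcription factor genes (left) and the 8 endothelial reference genes (right), on the log2(TPM + pseudocount) scale. Filled points with bars give the mean at a pseudocount of 1 and its SE, which comes from the spread between tumors within groups. Open diamonds give the mean at 0.1, and Sox7, Sox17, Sox18 and Erg lie near -1 at the smaller pseudocount.

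The endothelial genes used as a reference fell by more than most of the transcription factor genes. Of the 8, 7 were lower with LEN and 0 higher, with a median effect of -0.79, against -0.38 over the 10 transcription factor genes and 0.0004 over all genes tested. Cdh5 (-1.17) and the tight junction gene Cldn5 (-1.09) had the largest effects, while Ecscr (-0.12, limma adjusted p = 0.205) did not pass. Mean Ecscr went up from 24.3 TPM in NT to 34.5 in LEN in CT26.WT, and from 37.4 to 43.3 in EMT6. The ranges did not overlap in either, and LEN lay below NT without overlap in Renca, LL/2 and KLN205. The summed TPM of the 8 genes ranged from 56.84 to 214.36 in NT and from 25.6 to 138.02 in LEN, with none at 0 throughout a group.

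When the mean of these 8 genes was subtracted from every gene in each tumor, 9 of the 10 genes were higher with LEN relative to them and 0 lower. The same was true of 98.8% of all genes (0.0897% were lower), so the count says nothing particular to them. The exception was Sox18, with -0.04 (SE 0.0528, limma adjusted p = 0.481). Relative to the reference, Sox7 was at 0.26, Sox17 at 0.25 and Erg at 0.19 (limma adjusted p = 0.000726). These last 3 values depend on the pseudocount: at 0.1 they were -0.08, -0.04 and -0.03, with adjusted p of 0.363, 0.736 and 0.769 (limma), and 6 of the 10 genes were higher and 0 lower, against 96.7% and 0.129% of all genes.

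Related genes were compared within models by a two-sided exact sign-flip permutation test over the 12 differences, with adjustment over 6 pairs. For these differences the SE is taken over the 12 models. Sox18 fell more than Sox7 on the log2(TPM + 1) scale, by 0.30 (SE 0.0556, exact p = 0.000488281, the smallest that the sign patterns allow, adjusted p = 0.00293), in 12 of 12 models. It also fell more than Sox17, by 0.29 (SE 0.0994, exact permutation, adjusted p = 0.0293), in 10 of 12, a call that was lost without any 1 of 6 models (differences of 0.22 to 0.29, exact permutation, adjusted p from 0.0527 to 0.0586). At a pseudocount of 0.1 the differences were -0.04 (adjusted p = 0.688) and -0.001 (adjusted p = 0.993) in the same exact permutation test, so they follow the level of the genes as it enters the scale. Sox7 and Sox17 differed by 0.01 (SE 0.0854, exact permutation, adjusted p = 0.919).

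For Erg against Fli1 the difference was -0.28 (SE 0.162, exact permutation, adjusted p = 0.157) at a pseudocount of 1 and -0.66 (exact permutation, adjusted p = 0.0293) at 0.1, and for Fli1 against Ets1 it was -0.23 (SE 0.143, exact permutation, adjusted p = 0.157). The signed effect was lower by 0.26 for Klf2 than for Klf4 (SE 0.122, exact permutation, adjusted p = 0.11), and lower in 11 of 12 models. These 3 pairs did not pass the threshold at a pseudocount of 1, which does not show that their members changed alike. Without B16-F10, Fli1 differed from Ets1 by -0.33 (exact permutation, adjusted p = 0.0249) and Klf2 from Klf4 by -0.36 (exact permutation, adjusted p = 0.00293).

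Fitted one model at a time, with 3 tumors against 3, 15 of the 120 pairs of gene and model passed the limma threshold. Of these, 10 were lower (8.33%) and 5 higher (4.17%), against 0.874% and 2.57% of all tests in the 12 fits. They came from 3 models, Renca with 7, BNL with 7 and B16-F10 with 1. Read from the fit of all 72 tumors, which shares 1 estimate of the spread, 21 pairs were lower and 8 higher, in 9 models, against 2.19% and 3.42% of all tests. With a minimum of 1 TPM, the fits of single models gave 6 lower and 6 higher, in the same 3 models, against 1.3% and 3.56%. Fewer than 120 pairs were tested there. Sox7, Sox17 and Erg in Renca and Tal1 in BNL, called lower without this minimum, fell under it and were not tested. Ranges of LEN and NT did not overlap with LEN below in 53 pairs (44.2%) and with LEN above in 14 (11.7%). Over all genes and models these shares were 9.85% and 11.7%, so the share of pairs above stands at the background.

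**Figure D4:**
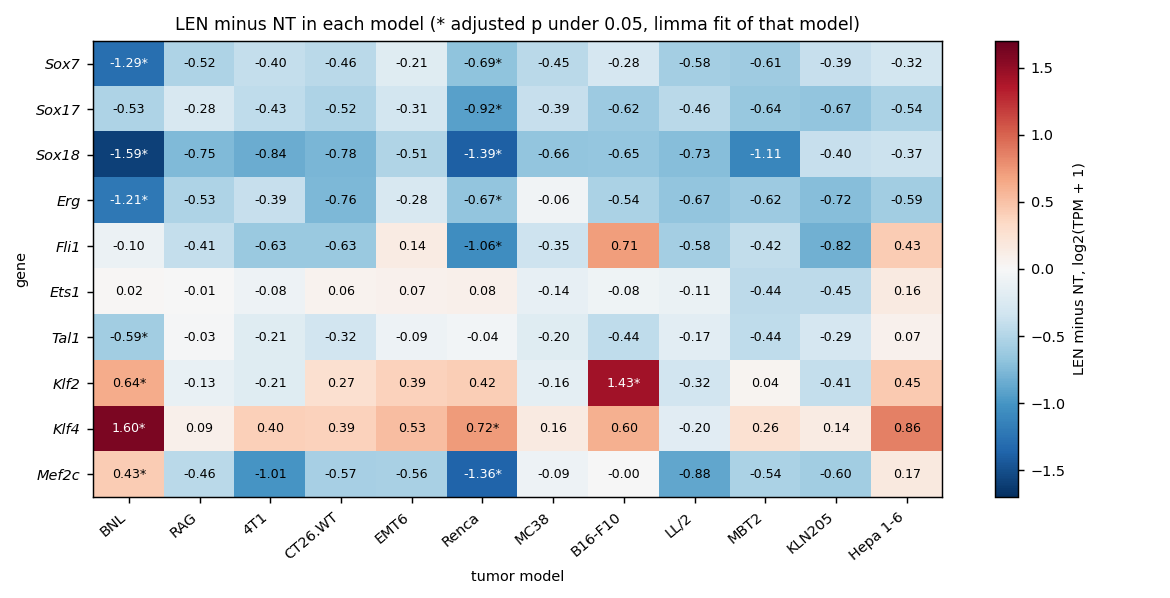
LEN minus NT on the log2(TPM + 1) scale for each gene (vertical axis) in each model (horizontal axis), with blue for lower and red for higher in LEN and an asterisk where the limma fit of that model gave an adjusted p under 0.05. Sox7, Sox17, Sox18 and Erg are below 0 in all 12 models, and asterisks appear in BNL, Renca and B16-F10.

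In Renca, 6 of the 10 genes were lower and 1 was higher, against 5.02% and 3.48% of all genes. Sox18 was at 5.51, 6.38 and 7.28 TPM in NT and at 1.91, 1.55 and 1.98 in LEN (effect -1.39, limma adjusted p = 0.00251). Mef2c went from 12.96, 11.36 and 15.04 TPM to 5.2, 4.27 and 3.98 (-1.36, limma adjusted p = 0.0027), and Fli1 from 6.26, 6.35 and 7.98 to 3.03, 2.7 and 2.58 (-1.06, limma adjusted p = 0.00494). Every LEN tumor lay below every NT tumor for these 3 genes. The share of all tests with this pattern was 9.85% over the 12 models, and that in Renca alone is not given here.

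Sox17 in Renca went from 1.44, 1.6 and 1.51 TPM in NT to 0.23, 0.34 and 0.42 in LEN (-0.92, limma adjusted p = 0.00434), again without overlap. Sox7 (-0.69, limma adjusted p = 0.0207) and Erg (-0.67, limma adjusted p = 0.0174) were also lower. Both calls were lost without any 1 of the LEN tumors, with effects of -0.72 to -0.66 for Sox7 and -0.71 to -0.62 for Erg (limma adjusted p from 0.0589 to 0.0809), and that of Sox7 also without NT replicate 5 (-0.59, limma adjusted p = 0.0593). Klf4 was the gene that rose, from 30.09, 27.36 and 26.83 TPM to 40.55, 56.22 and 45.25 (0.72, limma adjusted p = 0.0174). This call was lost without LEN replicate 5 (0.75, limma adjusted p = 0.0626) or NT replicate 5 (0.69, limma adjusted p = 0.0720). Leukocyte and myeloid markers moved in the same model, with 5 of 8 lower and 2 higher and a sum of 984.2 to 1147.89 TPM in NT and 580.64 to 612.14 in LEN. Pericyte and smooth muscle markers were 4 lower and 1 higher of 7, the endothelial reference genes 6 lower of 8, markers of mast cells, megakaryocytes and red cells 3 lower of 5, T and NK cell markers 1 lower and 2 higher of 8, and immediate early genes 2 higher of 9. Lymphatic markers were 1 lower and 1 higher of 3, with a sum of 106.46 to 113.28 TPM in NT and 152.84 to 162.44 in LEN. The part of these markers in the changes of the transcription factor genes was not tested.

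BNL had 4 genes lower and 3 higher, against 3.75% and 19.9% of all genes. Sox18 went from 21.46, 20.04 and 16.53 TPM in NT to 6.17, 6.46 and 4.69 in LEN (-1.59, limma adjusted p = 0.000629), and Sox7 from 3.64, 3.86 and 3.43 to 0.78, 1.11 and 0.83 (-1.29, limma adjusted p = 0.00122). Erg went from 4.31, 6.48 and 4.97 TPM to 1.34, 2.31 and 1.48 (-1.21, limma adjusted p = 0.00662). The 3 genes did not overlap between the groups, and neither did Tal1 (-0.59, limma adjusted p = 0.0211). The share of all tests with LEN below NT without overlap was 9.85% over the 12 models, and that in BNL alone is not given here. The call for Tal1 was lost without any 1 of the NT tumors, LEN replicate 2 or LEN replicate 4, with an effect from -0.62 to -0.55 and an adjusted p from 0.0537 to 0.0711 (limma). In the same tumors 7 of the 8 endothelial reference genes were lower, with a sum of 197.09 to 214.36 TPM in NT and 100.16 to 111.61 in LEN. Pericyte and smooth muscle markers were lower for 2 of 7, and markers of mast cells, megakaryocytes and red cells 3 lower and 3 higher of 10, with a sum of 155.9 to 214.72 TPM in NT and 102.05 to 111.61 in LEN. The part of these markers in the falls was not tested.

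The genes that rose in BNL were Klf4, Klf2 and Mef2c. Klf4 went from 4.09, 3.27 and 3.2 TPM in NT to 10.75, 12.54 and 14.84 in LEN (1.60, limma adjusted p = 0.000668), the largest rise of any gene here in any model on this scale. Klf2 went from 9.13, 10.99 and 9.51 TPM to 15.47, 18.15 and 14.23 (0.64, limma adjusted p = 0.00965). Mef2c went from 15.41, 18.11 and 14.9 TPM to 22.17, 21.23 and 22.43 (0.43, limma adjusted p = 0.0156), opposite to its direction in Renca. Its call was lost without NT replicate 1 (0.40, limma adjusted p = 0.0557) or NT replicate 4 (0.37, limma adjusted p = 0.0569). Fli1 did not pass in BNL, with 11.7, 11.15 and 10.4 TPM in NT and 9.83, 10.29 and 10.63 in LEN.

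Skeletal muscle genes rose in the same BNL tumors, 7 of 7 markers, with a sum of 40.13 to 123.09 TPM in NT and 1702.81 to 2433.3 in LEN. Mef2c is itself a muscle factor. T and NK cell markers were higher too (5 of 8), and leukocyte and myeloid markers were 1 lower and 1 higher of 8. Of the markers tested, 1 of 2 B cell and 1 of 2 keratinocyte markers were higher, and 1 of 4 lymphatic markers was lower. Of 9 immediate early genes, 4 were higher and 1 lower (Fos from 11.1 ± 0.774 TPM in NT to 23.6 ± 3.40 in LEN), and 4 of 6 fibroblast markers were lower. The part of these markers in the rise of Mef2c, Klf2 and Klf4 was not tested. The treatment-naive BNL tumors had muscle sums of 310.13 to 699.09 TPM.

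In B16-F10, Klf2 was the gene that passed, with 4.18, 4.58 and 4.6 TPM in NT and 13.9, 14.31 and 12.84 in LEN (1.43, limma adjusted p = 0.00182), a ratio of 3.07. All genes were called at 1.44% lower and 6.48% higher in this model. Its treatment-naive tumors had Klf2 at 6.5, 5.78 and 5.67 TPM, between the NT and LEN values. Leukocyte and myeloid markers moved with it, from a sum of 86.76 to 119.59 TPM in NT to 248.32 to 320.9 in LEN (6 of 8 higher), as did fibroblast (6 of 6), T and NK cell (7 of 8) and muscle markers (6 of 7). Immediate early genes were higher for 2 of 9, and markers of mast cells, megakaryocytes and red cells for 2 of 10. Lower were 3 of 8 endothelial reference genes, 3 of 7 pericyte and smooth muscle markers and 1 of 4 lymphatic markers. The part of these markers in the rise of Klf2 was not tested. Fli1 was at 1.3, 1.69 and 1.65 TPM in NT and at 4.27, 1.74 and 4 in LEN, without overlap and without passing the test, and B16-F10 was the model with the highest ratio for this gene, 2.16.

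The size of the LEN effect differed between models for 5 of the 10 genes by the limma F test of all 72 tumors, against 28.7% of all genes. Klf2 had the smallest adjusted p (1.26e-09), followed by Klf4 (1.35e-06), Fli1 (8.47e-05), Mef2c (0.000193) and Sox7 (0.0298). The call for Sox7 rested on BNL: without this model the adjusted p was 0.819, without any 1 of its tumors but LEN replicate 4 it was 0.0568 to 0.0962, and without B16-F10 it was 0.0517 (limma). For Sox17 (adjusted p = 0.829), Tal1 (0.352), Sox18 (0.0913), Ets1 (0.0882) and Erg (0.0795), all by limma, no difference between models was detectable with 3 tumors a group. The last 3 passed when single tumors or models were left out, Sox18 and Erg without EMT6 (limma adjusted p = 0.0333 and 0.0389) and Ets1 without 4T1 (limma adjusted p = 0.0291). With upper-quartile rescaling the same 3 also passed (limma adjusted p = 0.04995 for Sox18, 0.0254 for Erg and 0.0194 for Ets1), which made 8 genes, against 35.7% of all genes under that rescaling.

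The NT tumors of day 8 were compared with the treatment-naive tumors to describe change without drug. They are the same NT tumors that LEN was compared with, so the comparisons are not independent. SE and p-values again come from the spread between tumors within groups. Over the 12 models, 5 genes were lower on day 8 and 0 higher, against 11.4% and 11.7% of all genes. These were Sox18 (-0.33, SE 0.072, limma adjusted p = 0.00059), Fli1 (-0.25, SE 0.0584, limma adjusted p = 0.00125), Erg (-0.23, SE 0.0681, limma adjusted p = 0.011), Sox17 (-0.22, SE 0.0748, limma adjusted p = 0.0285) and Klf4 (-0.17, SE 0.052, limma adjusted p = 0.016). Each was lower in 8 of 12 models. Markers of several cell types were lower as well, with 6 of 7 for skeletal muscle (median -1.22), 4 of 8 for T and NK cells, 4 of 10 for mast cells, megakaryocytes and red cells, 3 of 6 for fibroblasts, 3 of 8 for leukocytes and myeloid cells and 3 of 8 of the endothelial reference genes, while 3 of 9 immediate early genes were higher. Their part in the falls of the transcription factor genes was not tested.

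Sox7 (-0.04), Ets1 (0.05), Tal1 (-0.11), Klf2 (-0.09) and Mef2c (-0.02) did not pass, with adjusted p between 0.0733 and 0.852 (limma). The change differed between models for 9 of the 10 genes, all but Tal1, against 50.2% of all genes. The Sox17 call was near the threshold (limma adjusted p = 0.0463) and was lost without single tumors, as without EMT6 Base replicate 3 (limma adjusted p = 0.122). Scaling mattered for this comparison: over all genes 2917 were lower and 3002 higher, and after rescaling over protein-coding genes 5042 and 1275, with 7 of the 10 genes lower. With upper-quartile rescaling the split was 4651 and 1501, and 6 of the 10 genes were lower.

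**Figure D5:**
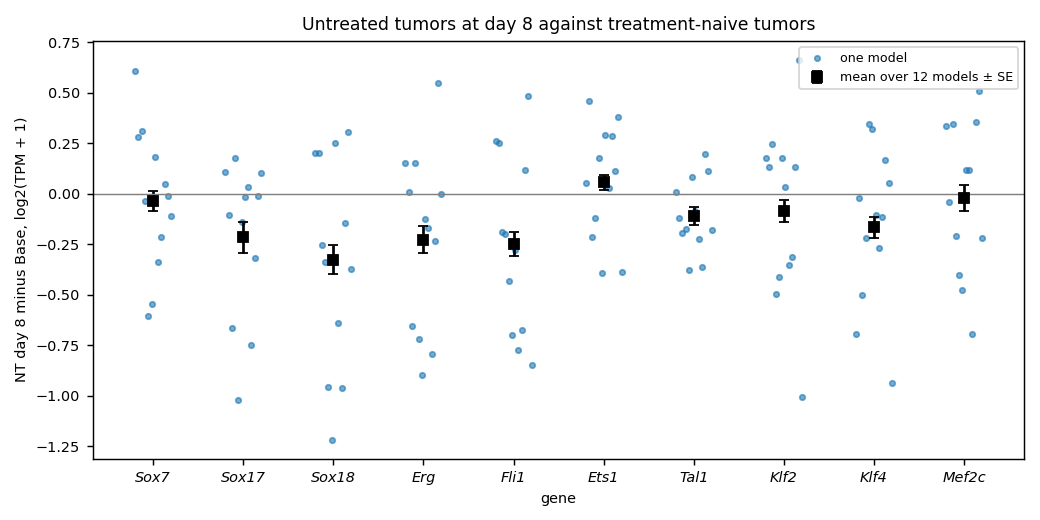
Difference between NT tumors of day 8 and treatment-naive tumors on the log2(TPM + 1) scale, for each model (small points) and as the mean over 12 models with its SE (squares). The SE comes from the spread between tumors within groups. The means of Sox18, Fli1, Erg and Sox17 lie between -0.33 and -0.22, and single models lie on both sides of 0 for each gene.

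Falls without drug that passed the limma threshold were found for 5 of the 10 genes in Renca (7.4% of all genes), 4 in EMT6 (10.4%), 4 in LL/2 (2.49%), 4 in Hepa 1-6 (14.8%), and for single genes in B16-F10 (Fli1, 1.28%) and BNL (Klf4, 4.57%). In Renca, Sox18 went from 13.69, 19.94 and 15.28 TPM to 5.51, 6.38 and 7.28 in NT (-1.22), and Erg from 2.62, 3.01 and 3.59 to 1.37, 1.18 and 1 (-0.90). In EMT6, Sox18 changed by -0.96 and Sox17 by -1.02, and in LL/2, Sox18 changed by -0.96 and Erg by -0.79, each past the limma threshold. BNL went the other way for Sox7, with 2.1, 2.13 and 1.91 TPM before and 3.64, 3.86 and 3.43 in NT (0.61), without overlap, in a model where 16% of all genes rose. The other rises were of Klf2 (0.66) and Ets1 (0.38) in KLN205, where 20% of all genes rose, and of Ets1 (0.46) in RAG (2.5%). In Hepa 1-6, Klf2 (-1.01), Klf4 (-0.94) and Fli1 (-0.85) were lower on day 8, with Klf4 at 48.32, 29.65 and 40.34 TPM in Base and 23.61, 17.19 and 18.77 in NT. In the same Hepa 1-6 tumors the leukocyte and myeloid sum was 810.24 to 1646.28 TPM in Base and 344.59 to 867.44 in NT, and the immediate early gene Fos was at 25.0 ± 13.4 TPM and 6.64 ± 1.55.

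Marker sums moved between Base and NT in other models too, in both directions. The leukocyte and myeloid sum was lower in NT without overlap in Renca, B16-F10 (203.88 to 249.86 TPM in Base and 86.76 to 119.59 in NT) and LL/2, and higher without overlap in BNL, 4T1 (389.06 to 539.83 and 848.39 to 1283.26), EMT6 (610.91 to 800.8 and 829.88 to 951.96) and MBT2. In BNL, beside the rise of Sox7, this sum was 345.55 to 483.35 TPM in Base and 893.54 to 1012.78 in NT, the fibroblast sum was 4382.58 to 4652.27 and 8077.02 to 9147.92, and the pericyte and smooth muscle sum was 141.7 to 153.25 and 259.04 to 281.68. The endothelial reference sum of BNL was 182.07 to 205.62 TPM in Base and 197.09 to 214.36 in NT, with overlap. In KLN205 the immediate early gene sum was 195.16 to 211.5 TPM in Base and 253.63 to 291.38 in NT, beside the rise of Klf2. In LL/2 the leukocyte and myeloid sum was 1334.11 to 1663.61 TPM in Base and 493.94 to 684.17 in NT, and the pericyte and smooth muscle sum 53.33 to 61.93 and 20.11 to 22.35. The endothelial reference sum of LL/2 was 81.43 to 99.14 TPM in Base and 65.67 to 73.54 in NT, without overlap. In Renca the sum of the endothelial reference genes was 171.58 to 207.06 TPM in Base and 86.84 to 106.97 in NT, and the fibroblast sum 1562.83 to 2415.59 and 348.22 to 736.59. In EMT6 the endothelial reference sum was 169.31 to 250.04 TPM in Base and 111.69 to 169.56 in NT, with a slight overlap. The part of these markers in the falls and rises was not tested.

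To name the genes most like each member, log2(TPM + 1) was correlated over all tumors after subtracting the mean of each model, among 13282 genes. Sox18 was most like Tie1 (r = 0.945), Kdr (0.923) and Cdh5 (0.907), a receptor of the angiopoietin system, a VEGF receptor and a junction cadherin. Erg was most like Tie1 (0.875), Cdh5 (0.865) and Rasip1 (0.857), and Sox7 like Sox18 (0.865), Cdh5 (0.861) and Tie1 (0.853). Sox17 was nearest to Rasip1 (0.797), Pecam1 (0.795) and Erg (0.794). Part of this likeness came from differences between the Base, NT and LEN groups: with the mean of each group of each model subtracted, r was 0.797 for Sox18 with Tie1, 0.484 for Erg with Tie1 and 0.605 for Sox7 with Sox18.

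For the other members the nearest genes were as follows. Fli1 was closest to Pik3cg (0.880), a kinase of leukocytes, Fcgr3 (0.876), an Fc receptor of myeloid cells, and Rab3il1 (0.873), and Mef2c to Hpgds (0.821), Ntpcr (0.816) and Abca9 (0.813). Klf2 was closest to the lysosomal genes Ctsb (0.745) and Psap (0.734), and Klf4 to Lgals3 (0.809), which encodes galectin-3. Tal1 reached 0.663 with the endothelial protocadherin Pcdh12, which was 0.240 with group means subtracted, followed by the basement membrane gene Nid2 (0.603) and the junction gene Esam (0.602), and Ets1 reached 0.678 with Man2a1, which was then 0.686. Between members, r was 0.87 for Sox7 and Sox18, 0.72 for Fli1 and Mef2c, and 0.47 for Klf2 and Klf4, while Klf4 and Sox7 were at -0.57. With group means subtracted these were 0.61, 0.44, 0.07 and -0.06, so those with Klf4 were near 0 within groups.

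Among other listed transcription factors of endothelial cells, 11 of 27 tested were lower and 2 higher with LEN, with a median effect of -0.06. Of all genes, 7.56% were lower and 10.7% higher. Bcl6b, a repressor found in endothelium, had the largest fall (-0.69), followed by Epas1 (-0.46), a hypoxia factor, and Meox2 (-0.35). Lyl1 (-0.34), a close relative of Tal1, and Lmo2 (-0.22), a partner of both, fell, and so did Hey1 (-0.34), a Notch target. Id1 (0.19) and Nr2f2 (0.11), the venous factor COUP-TFII, rose. The ETS genes Ets2 (0.09), Elk3 (-0.06) and Etv6 (0.04) did not pass the limma threshold, and Etv2 was too low to be tested.

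A list of 20 endothelial genes named as targets of these factors was also tested. Of the 20, 16 were lower and 0 higher, against 7.56% and 10.7% of all genes, with a median effect of -0.45. The mucin Emcn (-1.0), the Notch ligand Dll4 (-0.98) and the adhesion gene Icam2 (-0.86) fell the most, and the VEGF receptor genes Flt4 (-0.74), Kdr (-0.71) and Flt1 (-0.43) fell too. Nos3 (-0.43), a target of Klf2, was lower, while Thbd (0.06), another Klf2 target, did not pass the threshold, nor did Vwf (0.07), Notch1 (-0.08) and Ece1 (0.01).

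Markers of other cells moved with LEN as well, and their part in the effects on the members was not tested. Pericyte and smooth muscle markers were lower for 6 of 7 (Rgs5 -0.94). Of 8 leukocyte and myeloid markers, 2 were lower (Csf1r -0.45 and Adgre1 -0.37) and 2 higher (S100a9 0.90 and S100a8 0.73), and 8 of 8 T and NK cell markers were higher (Cd3e 0.47). Of 10 markers of mast cells, megakaryocytes and red cells, among which Tal1 is used, 4 were lower and 1 higher, with the globin genes Hbb-bs (-2.43) and Hba-a1 (-2.12) falling the most. Lymphatic markers were 2 lower (Flt4 and Lyve1) and 1 higher (Pdpn) of 4, fibroblast markers 1 lower and 1 higher of 6, keratinocyte markers 1 higher of 6 (Krt14 0.59), and the B cell genes Cd79a (0.04) and Cd79b (0.10) did not pass the limma threshold. Skeletal muscle markers were higher for 7 of 7, with a sum of 2.78 to 162.59 TPM in NT and 3.59 to 2433.3 in LEN. Of 9 immediate early genes, which respond to stress and handling as Klf2 and Klf4 can, 6 were higher and 0 lower (Fos 0.48, Junb 0.39, Dusp1 0.38).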

How the data were processed

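RNA was sequenced from 35 Base, 36 NT and 36 LEN subcutaneous mouse tumors. According to the methods and the processing notes, the authors depleted ribosomal RNA, sequenced on NovaSeq and NextSeq instruments, checked reads with FastQC, trimmed them with Trimmomatic 0.36, mapped them with STAR 2.5.2b to mm10 (Ensembl 88) and quantified genes by RSEM 1.2.31. Which tumor ran on which instrument is not given in the sources used here. The authors deposited TPM for 50686 genes, and each tumor sums to 999999 to 1000001, so depth is unknown. The members and gene lists were chosen with earlier results of these data known.

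From the deposited TPM, log2(TPM + 1) was computed. Genes with a mean of at least 0.1 TPM in the fitted tumors were tested in R 4.3.3 by limma 3.58.1 (eBayes, trend on), and p-values were adjusted over all tested genes by Benjamini-Hochberg, with a threshold of 0.05. Groups came from the sample labels. LEN minus NT was fitted for each model alone and for all 72 tumors as 24 groups, and NT minus Base for 71 tumors. Named genes are the members, the lists, and the 3 genes most like each member, of which some are left out of the text. Genes singled out from the lists were chosen after their values were seen.

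Alternatives were a pseudocount of 0.1, a minimum of 1 TPM or none, rescaling by the upper quartile or over protein-coding genes, no trend, the replicate number as a block, single models read from the fit of all 72 tumors, and leaving out each tumor. Leaving out each model was added after seeing the data. Same-numbered tumors were not paired by the labels. Code was tested on simulated data. Python 3.11.15, numpy 2.4.6, pandas 2.3.3, scipy 1.17.1 and matplotlib 3.10.9 were used, and gene positions and types came from GENCODE M21, with a record for 50462 genes.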

Additional observations from a re-analysis of the deposited data

Results flagged for a closer look

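The effect of LEN differed between models for 5 of the 10 genes in the limma F test, which brings them to attention: Klf2 (adjusted p = 1.26e-09), Klf4 (1.35e-06), Fli1 (8.47e-05), Mef2c (0.000193) and Sox7 (0.0298). This F test was passed by 28.7% of all genes. Among the extremes were Klf2 in B16-F10 (1.43) and KLN205 (-0.41), Klf4 in BNL (1.60), Mef2c in BNL (0.43) and Renca (-1.36), Fli1 in Renca (-1.06), and Sox7 in BNL (-1.29).

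The change from treatment-naive to NT tumors also differed between models by the limma F test for Ets1 (adjusted p = 7.74e-05), Klf2 (4.62e-05), Fli1 (0.000185), Klf4 (0.000295), Sox7 (0.000424), Sox18 (0.000635), Erg (0.00274), Mef2c (0.0132) and Sox17 (0.0463). The same test was passed by 50.2% of all genes.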

How the results depend on the processing

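The counts of members called stayed within 1.5 times of the reported value in 910 recomputed counts and not in 14. For the fits of single models, leaving out a tumor refitted only its own model, so those counts could hardly move. Among recomputed single values, 5113 kept their call or lack of it, 82 lost a call, 30 gained one and 5 reversed in sign. The F test of LEN effects called 8 members with upper-quartile rescaling (35.7% of all genes), against 5 (28.7%). For single models, the fit of all 72 tumors called 21 pairs lower and 8 higher, against 10 and 5. A minimum of 1 TPM left 6 lower, since Sox7, Sox17 and Erg in Renca and Tal1 in BNL were then not tested. At a pseudocount of 0.1, 1 of the 6 pairs of related genes passed, Erg against Fli1, in place of 2 others. At the same pseudocount the values relative to the reference turned to -0.0781 for Sox7, -0.0352 for Sox17 and -0.0260 for Erg, and the differences of Sox7 and Sox17 from Sox18 to -0.0440 and -0.00118.

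Leaving out 1 tumor or model gave 1 to 2 members higher with LEN (1 without B16-F10), 4 to 7 with an effect differing between models, 1 to 2 related to leukocyte markers and 1 to 4 pairs of related genes. With the replicate number as a block, the counts were the same as without it. With LEN, 7 members were lower and 2 higher, 5 differed between models, and 10 pairs were lower and 5 higher. Relative to the reference 9 were higher, as 98.8% of all genes were without the block. In NT, 5 were lower, with 9 differing between models. The replicate number did not pair the tumors: of 20 same-numbered pairs, 0 had a correlation of deviations above 0.1 (-0.0585 to 0.0669).

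With 3 tumors a group and no depth in TPM, the counting error of genes under 1 TPM, such as Tal1 in most models, is unknown, and fold changes of low genes are understated at a pseudocount of 1. Tumor and instrument cannot be matched, so no value was recomputed within an instrument.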
